A study of Mus musculus with 18 samples.

Results

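Naive B cells of mouse spleen were compared between mice built to delete G9a in B cells and their controls, from 6 of the 18 libraries of the series: 3 naive control libraries (Ctrl) and 3 naive knockout libraries (KO), chosen by their labels. Ctrl mice carried 1 copy of a knock-in allele that makes Cre in the B lineage, and KO mice carried G9afl/fl with the same Cre allele. Both groups therefore had the Cre insertion, and the comparison cannot show any effect of it. Deletion is limited to the cells that make Cre. The naive cells came from uninfected mice, and CD43 beads were used to leave CD43-negative cells. RNA of 1000 cells went into each library, by SMART-seq v4 and Nextera XT. Nothing in the labels ties the replicates to separate animals, and p-values here reflect only how these samples vary, which may be technical. The other 12 libraries were sorted activated B cells and plasma cells taken 72 h after lipopolysaccharide (LPS), and only the 6 activated ones, 3 Ctrl and 3 KO of the same genotypes, enter a comparison below.

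G9a, the product of Ehmt2, works with its partner GLP (Ehmt1) to add 1 or 2 methyl groups to histone H3 at its lysine 9 (H3K9), and the dimethyl mark is found on silent genes. A naive B cell is a resting cell. It carries a B cell receptor made of immunoglobulin with Cd79a and Cd79b, lives on BAFF signals, circulates through follicles, and is poised to present antigen on MHC class II, without dividing or secreting antibody. Whether such a cell changes its RNA when G9a is removed is the question the naive pair of groups addresses.

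No gene differed between naive KO and naive Ctrl at an adjusted p under 0.05. The test was limma over 12626 genes (0.0% called), and the smallest adjusted p was 0.317. A fit that takes 1 estimate of spread over all 18 libraries called 923 genes, 269 higher and 654 lower, and the sorted libraries in that estimate varied less than the naive ones. The cells expressed the program of resting follicular B cells in both genotypes. For 4819 genes (38.2%) the 95% interval of the log2 change lay within 2-fold in both directions. These included every measured gene of the follicular list, 7 of 7, and all 76 cytosolic ribosomal proteins. Both lists are abundant, and of all tested genes of 50 RPKM or more 97.4% were bounded in this way. At an unadjusted p under 0.05 there were 893 genes (7.07%), of which 302 were higher in KO (2.39%) and 591 lower (4.68%). Values are RPKM, reads relative to gene length and library size, scaled between libraries, and changes are differences of log2(scaled RPKM + 1), KO minus Ctrl.

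The naive libraries varied more than the sorted ones, and this sets what the comparison could resolve. The median standard deviation of a gene on the log2 scale was 0.368 in naive Ctrl and 0.389 in naive KO, against 0.125 to 0.134 in the 4 groups of sorted cells. Correlations over genes were 0.908 to 0.927 between naive Ctrl replicates, 0.917 to 0.934 between naive KO replicates and 0.902 to 0.933 between genotypes, and the 2 ranges for replicates and the range between genotypes overlapped. The estimated depth was 1620000 to 3990000 reads in the naive libraries. The share of genes bounded within 2-fold went from 1.08% of genes under 2 RPKM, through 17.5% at 5 to 10 RPKM and 52.3% at 10 to 20 RPKM, to 81.9% at 20 to 50 RPKM and 98.9% above 100 RPKM. Below about 10 RPKM a change of 2-fold could in general not be bounded here. The bounded share is not a rate of detection. Kcnk5, for 1, went from a mean of 15.1 RPKM in Ctrl to 31.4 in KO and was not called (adjusted p 0.428 in limma).

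The label was checked against marker genes. Fcer2a, which encodes CD23 of follicular B cells, read 439, 430.3 and 309 RPKM in Ctrl and 395, 329 and 436 in KO. The groups overlapped, as did those of Fcmr and Ccr7 given further on. Of markers of cells that should be missing, Prdm1 and Mki67 were low, but related genes were not low throughout. Of the plasma cell list 12 of 23 tested genes averaged 10 RPKM or more over the 6 libraries, and of the cell division list 15 of 51. Prdm1, the driver of plasma cell differentiation, averaged 1.58 ± 1.39 RPKM in Ctrl and 0.874 ± 0.803 in KO (SD, n = 3), and Mki67, a proliferation marker, averaged 1.37 ± 0.304 and 3.19 ± 1.30. The B1 B cell list, whose cells carry CD43, had a median level of 3.52 RPKM in Ctrl over 10 genes, and the follicular list 412 RPKM over 7.

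Marker RNAs of other cell types were read in both groups, and whether such cells were present was not tested. The Ctrl medians of the NK cell, dendritic, T cell and neutrophil lists were 1.80, 3.98, 4.24 and 5.69 RPKM. Odorant receptors, which B cells are not known to use, had medians of 4.41 to 7.22 RPKM as deposited in naive Ctrl libraries. The summed RPKM of 6 erythroid markers was 366 to 468 in Ctrl and 339 to 673 in KO, and that of 8 platelet markers was 70.8 to 427 in Ctrl and 60.1 to 97.0 in KO. The high value belonged to Ctrl replicate 1, where the platelet tubulin Tubb1 read 257 RPKM against 15.9 and 11.5 in the other 2 Ctrl libraries. Of these 8 markers 2 were lower and 0 higher at an unadjusted p under 0.05, against 4.68% and 2.39% of all tested genes. Over 8 tested genes of the T cell list the sum was 215 to 269 in Ctrl and 276 to 282 in KO. Most of it was Cd2, an adhesion molecule that mouse B cells also carry, at 191, 218 and 181 RPKM in Ctrl and 249, 251 and 241 in KO, all above Ctrl, with a change of 0.33 (0.05 to 0.62) and an adjusted p of 0.682 in limma. Another member was Cd3e, a subunit of the T cell receptor complex, at 7.09, 0 and 1.62 RPKM in Ctrl and 0.359, 1.27 and 0.742 in KO. Sums over 4 neutrophil markers were 17.5 to 31.0 in Ctrl and 10.4 to 32.2 in KO, over 3 NK cell markers 2.57 to 12.9 and 5.17 to 12.5, over 14 monocyte and macrophage markers 191 to 220.3 and 144 to 215, and over 9 dendritic markers 94.9 to 120.2 and 94.6 to 102. In bulk samples, fewer cells of a type and less RNA per cell cannot be told apart.

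Promoters of 3 genes are shown because results below turn on them. Atf3 encodes a stress-induced transcription factor and was among the genes with the smallest p in naive cells. For D17H6S56E-5 and Jchain the knockout effect differed between naive and activated cells. Each sequence runs 5′ to 3′ on the gene's strand from 250 bases before to 50 after the start, from RefSeq on GRCm38.p6, with every CpG dinucleotide in capitals. All 3 genes lie on the reverse strand, at chr1:191183284-191183583, chr17:35000697-35000996 and chr5:88527848-88528147 in that order.
Atf3: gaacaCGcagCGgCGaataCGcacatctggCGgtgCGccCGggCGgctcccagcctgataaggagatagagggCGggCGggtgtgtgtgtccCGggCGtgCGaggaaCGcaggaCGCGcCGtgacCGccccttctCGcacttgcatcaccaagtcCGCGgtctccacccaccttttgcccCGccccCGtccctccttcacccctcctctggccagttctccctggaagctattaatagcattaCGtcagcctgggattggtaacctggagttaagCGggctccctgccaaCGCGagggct
D17H6S56E-5: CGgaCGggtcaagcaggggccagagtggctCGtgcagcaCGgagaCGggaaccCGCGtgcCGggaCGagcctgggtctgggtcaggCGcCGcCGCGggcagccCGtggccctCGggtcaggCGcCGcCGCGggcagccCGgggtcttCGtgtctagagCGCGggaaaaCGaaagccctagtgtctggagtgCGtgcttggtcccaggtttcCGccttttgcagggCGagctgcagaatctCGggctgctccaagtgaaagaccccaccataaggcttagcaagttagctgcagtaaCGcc
Jchain: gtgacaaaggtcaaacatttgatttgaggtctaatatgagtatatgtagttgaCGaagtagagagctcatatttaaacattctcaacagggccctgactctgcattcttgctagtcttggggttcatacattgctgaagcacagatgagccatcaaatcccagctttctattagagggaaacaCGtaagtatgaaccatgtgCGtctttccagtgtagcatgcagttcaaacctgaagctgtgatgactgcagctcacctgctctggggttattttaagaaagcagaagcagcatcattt
The motif searched was CG, which reads the same on both strands, and it occurred 27 times in the Atf3 window, 29 times in that of D17H6S56E-5 and 3 times in that of Jchain. The median of the 32851 promoters in the table was 7, and 84.5%, 87.1% and 23.3% of them held fewer than these 3. D17H6S56E-5 and Jchain thus differ in CpG content. The counts describe these windows only.

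Ehmt2 itself (Entrez 110147, chr17:34898463-34914073, GRCm38.p6, protein coding) did not differ detectably. It read 27.9, 16.8 and 13.9 RPKM in Ctrl and 14.1, 23.5 and 14.1 in KO. The groups overlapped, with the highest value in Ctrl replicate 1 and the second highest in KO replicate 2. The change was -0.15 with a 95% interval of -0.85 to 0.55 and an adjusted p of 0.952 in limma. The value covers the whole gene, so it does not check the deletion of a part of it. In activated cells Ehmt2 averaged 23.4 ± 3.23 RPKM in Ctrl and 23.6 ± 0.853 in KO.

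None of the partners of G9a passed the test. Ehmt1, which encodes GLP, read 14.2, 17 and 7.51 RPKM in Ctrl and 24.3, 16.4 and 19.2 in KO, a change of 0.64 (95% interval -0.08 to 1.36). Wiz, the zinc finger protein that holds the complex on chromatin, averaged 5.16 ± 0.643 RPKM in Ctrl and 4.80 ± 0.271 in KO. Of 8 tested genes of the G9a list, which also held Ehmt2, Uhrf1 and Mphosph8, none was called. Of these 8, 4 were bounded within 2-fold, and the median change was 0.03. All tested genes had a median of -0.08.

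Other enzymes and readers of H3K9 methylation were counted next. None of 11 tested genes was called or had an unadjusted p under 0.05. Setdb1, the methyltransferase that silences retroelements with Trim28, averaged 10.9 ± 2.94 RPKM in Ctrl and 14.5 ± 0.605 in KO, and its groups did not overlap. That was so for 12.2% of all genes tested. Trim28 averaged 29.7 ± 6.68 and 29.6 ± 8.61. Of 10 H3K9 demethylases none was called, and Kdm1a, which encodes LSD1, changed by 0.63 with an interval of -0.03 to 1.28. Dnmt1, the maintenance DNA methyltransferase, read 22.3, 13 and 18.8 RPKM in Ctrl and 7.10, 14.6 and 10.7 in KO, a change of -0.71 with an interval of -1.45 to 0.03.

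**Figure D1:**
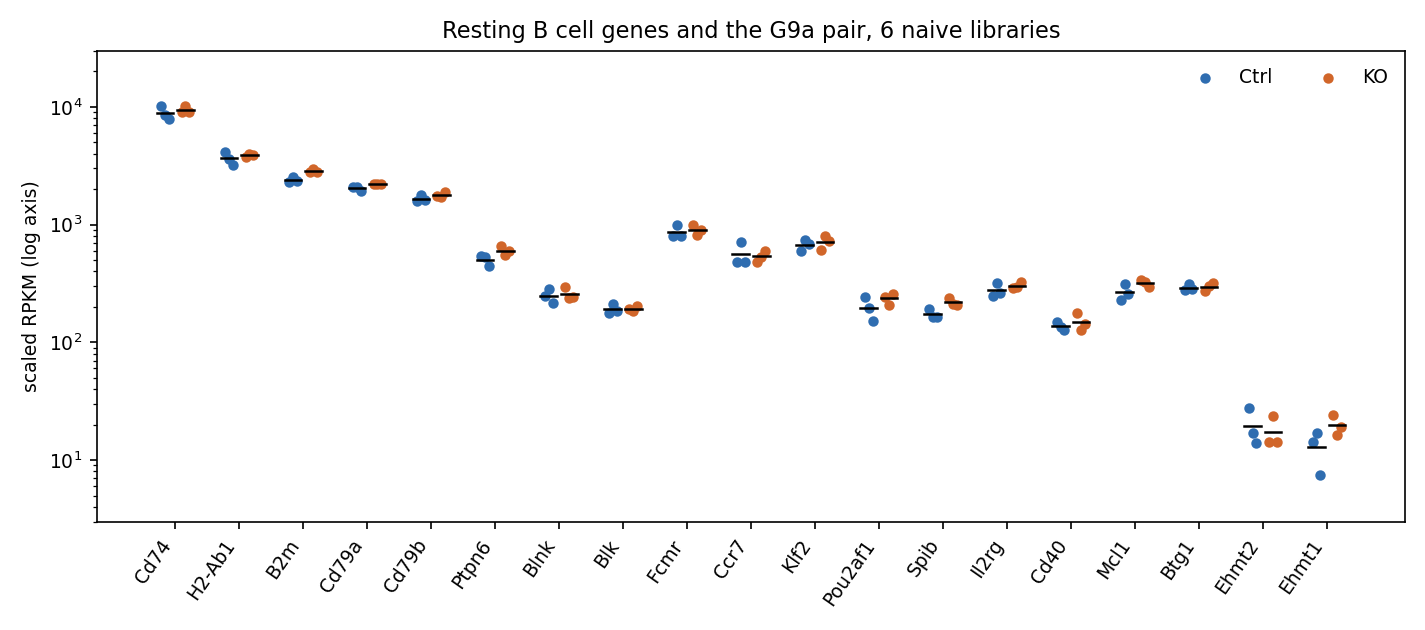
Scaled RPKM on a log axis in each of 6 naive libraries for 17 resting B cell genes and for Ehmt2 and Ehmt1; points are libraries (Ctrl blue, KO orange) and black bars are group means. The B cell genes lie between 127 and 10244 RPKM with groups close together, and the pair of methyltransferase genes lies below 30 RPKM.

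The most abundant RNAs included those of antigen presentation, the receptor, the cytoskeleton and the ribosome. Cd74, the invariant chain of MHC class II, led with 10083, 8524 and 7884 RPKM in Ctrl and 9070.1, 10244 and 9103 in KO. The groups overlapped, and the change was 0.11 (-0.09 to 0.31). Tmsb4x, an actin-binding peptide, H2-Ab1, a class II chain, and Actb, cytoskeletal actin, followed at 4439.5 ± 187, 3677 ± 469 and 2449.6 ± 142 RPKM in Ctrl. The next were B2m, Ly6d, H2-Aa, Cd79a, Cd52, Cd79b, Rps27, H2-D1, Rpl32, Rpl13 and H2-Eb1. Among these 15 genes no 95% interval went beyond 0.49 on the log2 scale, the upper limit of Tmsb4x. In all, 495 genes were at 100 RPKM or more in every one of the 6 libraries.

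Most genes of the receptor and its signalling chain were bounded, and 97.4% of all tested genes of 50 RPKM or more were too. Cd79a, a signalling subunit of the B cell receptor, read 2097, 2105 and 1934 RPKM in Ctrl and 2218, 2203 and 2228 in KO, all above Ctrl, and Cd79b, its partner, averaged 1663 ± 119 in Ctrl and 1789 ± 77.4 in KO. Their changes were 0.12 (-0.07 to 0.30) and 0.11 (-0.10 to 0.31). Of 14 receptor and coreceptor genes none was called and 13 were bounded within 2-fold, with a median change of 0.10. Of 31 kinases, adaptors and phosphatases 25 were bounded. Blnk, the adaptor below the receptor, averaged 249.7 ± 32.1 RPKM in Ctrl and 258 ± 31.7 in KO, and Blk, a Src family kinase, 192 ± 19.0 and 193 ± 10.1.

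Transcription factors hold the B lineage in place. Of 33 such genes none was called, 2 had an unadjusted p under 0.05, both higher in KO, and 28 were bounded within 2-fold. At that p 2.39% of all tested genes were higher, and 103 of 1500 genes of 50 RPKM or more. Klf2, a factor of quiescence and homing, was the most abundant at 672 ± 73.7 RPKM in Ctrl and 709 ± 99.9 in KO, a change of 0.07 (-0.20 to 0.35). Spib, an Ets family factor of mature B cells, read 193, 164 and 164 RPKM in Ctrl and 238, 209.9 and 209 in KO, and its groups did not overlap. Its change was 0.33 with an adjusted p of 0.696 in limma. Pax5, the keeper of B cell identity, averaged 28.7 ± 12.7 RPKM in Ctrl and 32.4 ± 8.07 in KO, and Ebf1, which acts beside it, at 28.8 ± 3.10 and 26.2 ± 1.46.

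Follicular genes and receptors for survival signals were nearly all bounded, as were 97.4% of all tested genes of 50 RPKM or more. Fcmr, the receptor for IgM, averaged 862 ± 105 RPKM in Ctrl and 905 ± 94.0 in KO. Ccr7, the receptor for lymphoid chemokines, averaged 558 ± 135 and 539 ± 58.1. Changes of the 7 follicular genes lay between -0.03 and 0.09. Tnfrsf13c, the BAFF receptor on which naive B cells depend, read 122, 127 and 129.6 RPKM in Ctrl and 137, 130.3 and 138 in KO, a change of 0.10 (-0.21 to 0.40). Of 18 receptors and adaptors for BAFF, APRIL and CD40 17 were bounded within 2-fold. Of 18 marginal zone genes, which include the complement receptor Cr2 at 119 ± 26.0 and 123 ± 9.22 RPKM, 10 were bounded and none had an unadjusted p under 0.05.

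Homing genes included larger differences. Gpr183, the oxysterol receptor that places B cells at the edge of the follicle, read 144, 181 and 146 RPKM in Ctrl and 116, 107 and 129 in KO. All 3 KO libraries were below all 3 Ctrl libraries, and the change was -0.42 (-0.75 to -0.08), with an adjusted p of 0.680 in limma. Icam1, an adhesion molecule, changed by 0.83 (0.13 to 1.53), from 11.7 to 17.3 RPKM in Ctrl to 17.3 to 42.1 in KO. Neither was called, and 18 of 25 genes of the list were bounded.

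Quiescence genes were expressed in both genotypes. Btg1, an antiproliferative gene, averaged 291 ± 17.4 RPKM in Ctrl and 298 ± 24.1 in KO, and Tsc22d3, which encodes GILZ, 229 ± 24.4 and 245 ± 17.6. Of 27 tested quiescence genes 21 were bounded within 2-fold. Of 51 tested cell division genes 5 had an unadjusted p under 0.05, all lower in KO, and none was called. Over all tested genes 4.68% were lower at that threshold, and 355 of 4519 under 5 RPKM. Aurkb, the kinase of chromosome segregation, read 6.17, 7.39 and 8.41 RPKM in Ctrl and 2.89, 2.48 and 3.66 in KO, and Birc5, its partner in the passenger complex, averaged 5.10 ± 1.22 and 1.96 ± 0.654. Groups did not overlap for either gene. For Mki67 and Mcm6, a subunit of the replicative helicase, all KO libraries lay above all Ctrl libraries, with changes of 0.79 (-0.18 to 1.76) and 0.09 (-0.44 to 0.61). The median of the list was -0.13, and its median level in Ctrl was 4.67 RPKM. With quantile normalization 3 genes were higher and 1 lower.

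Antigen presentation was read in its class II and class I genes. Of 16 class II genes 12 were bounded within 2-fold and none had an unadjusted p under 0.05. H2-Aa, a class II chain, averaged 2155 ± 137 RPKM in Ctrl and 2249 ± 96.8 in KO, and H2-Eb1, another, 1353 ± 49.5 and 1362 ± 79.7. Class I had 17 of 18 bounded and 2 higher at an unadjusted p under 0.05, B2m and Psmb8. At that p 2.39% of all tested genes were higher, and 103 of 1500 genes of 50 RPKM or more. B2m, the light chain of class I, read 2323, 2559 and 2363 RPKM in Ctrl and 2817, 2983 and 2794 in KO. Psmb8, a subunit of the immunoproteasome, read 330.0, 336 and 299.6 in Ctrl and 429, 378 and 430.2 in KO. All KO libraries were above all Ctrl libraries for both, with changes of 0.25 (0.06 to 0.43) and 0.36 (0.10 to 0.61) and adjusted p of 0.648 and 0.641 in limma. With quantile normalization, which gives every library the same distribution of values, the change of B2m was 0.00 and that of Psmb8 0.25. That setting also turned the sign of several small list medians, to -0.03 for ribosomal proteins, -0.07 for follicular genes, -0.01 for the receptor and coreceptors and -0.05 for class II, so these medians give no direction.

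LPS sensing is of interest because the sorted cells were taken after LPS. Of 21 Toll-like receptor genes none had an unadjusted p under 0.05 and 12 were bounded within 2-fold. Ly86, which encodes MD-1 of the CD180 complex, averaged 328 ± 29.1 RPKM in Ctrl and 376 ± 29.6 in KO. Tlr4, the LPS receptor, was low at 4.06, 4.26 and 4.15 RPKM in Ctrl and 8.69, 6.24 and 5.64 in KO, with an interval of -0.29 to 1.47 that leaves its change unresolved. Of 17 NF-kB genes 14 were bounded, and Nfkbia, the inhibitor induced by NF-kB itself, changed by 0.38 (0.08 to 0.67), from 249 ± 29.6 to 323 ± 37.9 RPKM. Of 52 interferon-stimulated genes 2 were higher and 2 lower at an unadjusted p under 0.05, where all tested genes gave 2.39% and 4.68%, so this share is near the background. They include Mndal, a nuclear sensor of the Ifi200 family, at 116 ± 30.1 and 159 ± 8.07 RPKM, and Igtp, a GTPase induced by interferon, at 19.5 ± 1.49 and 10.8 ± 3.86.

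Protein synthesis and energy supply were measured at high levels, and 97.4% of all tested genes of 50 RPKM or more were bounded within 2-fold. All 76 ribosomal protein genes were bounded within 2-fold, with changes between -0.10 and 0.26 and a median of 0.09, and none had an unadjusted p under 0.05. Rps27 averaged 1608 ± 42.4 RPKM in Ctrl and 1729.6 ± 110.1 in KO. Of 75 nuclear-encoded respiratory chain genes 71 were bounded. In this list 8 were higher and 0 lower at an unadjusted p under 0.05, where 2.39% of all genes were higher, and the median was 0.17. Atp5h, a subunit of ATP synthase, read 245, 289 and 234 RPKM in Ctrl and 324, 337 and 312 in KO. With quantile normalization 3 were higher and the median was 0.09. The genes of the list were abundant, with a median of 118 RPKM in Ctrl, and genes at 50 RPKM or more were more often higher than lower at that threshold, as given below.

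Secretion genes were present before any stimulus. Of 53 genes of the unfolded protein response and secretion 45 were bounded within 2-fold, with a median change of 0.09. At an unadjusted p under 0.05, 3 were higher and 0 lower, where 2.39% of all genes were higher. Of 1500 genes of 50 RPKM or more 103 were higher and 12 lower, with a median of 0.08. The list had a median level of 47.1 RPKM in Ctrl. Hspa5, the chaperone BiP of the endoplasmic reticulum, read 305, 364 and 363 RPKM in Ctrl and 348, 353 and 366 in KO, and its change was 0.05 (-0.21 to 0.32). Sec61b, a subunit of the translocon, averaged 115 ± 19.3 and 162 ± 15.7 RPKM, and its groups did not overlap. Of the plasma cell program 12 of 23 tested genes were bounded. Xbp1, which drives secretion, averaged 63.9 ± 17.1 RPKM in Ctrl and 74.3 ± 5.39 in KO.

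**Figure D2:**
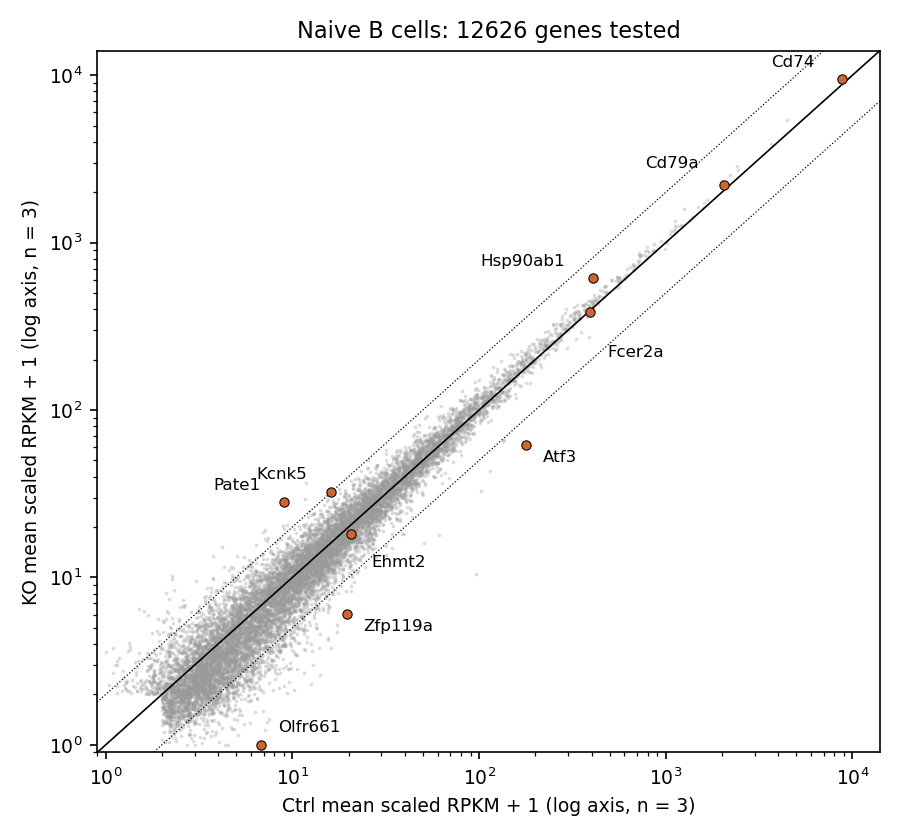
Mean scaled RPKM + 1 of 12626 tested genes in naive KO against naive Ctrl, both axes logarithmic, n = 3 libraries per group; the solid line marks equal levels and the dotted lines 2-fold. Cd74, Cd79a and Fcer2a lie on the line, Hsp90ab1 lies above it, Atf3 and Zfp119a lie below the lower dotted line, and the scatter widens below 20 RPKM.

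The genes with the smallest unadjusted p on the KO-higher side included an abundant cytosolic chaperone. Hsp90ab1 (Entrez 15516, chr17:45567778-45573261) encodes the constitutive form of HSP90. It read 399.6, 424 and 399.6 RPKM in Ctrl and 630.1, 573 and 633 in KO. The KO libraries were all above the Ctrl libraries, with a gap wider than either group. The change was 0.58 (0.35 to 0.82), the unadjusted p 9.6e-05 and the adjusted p 0.317 in limma. Seen after the values were known, 2 further cytosolic chaperones had the same order. That order held for 174 of 1500 tested genes of 50 RPKM or more. Hsp90aa1, the inducible HSP90, read 115, 128 and 146 RPKM in Ctrl and 167, 205 and 216 in KO. Hspa8, the constitutive HSC70, read 255, 298 and 319 in Ctrl and 396, 394 and 408 in KO. Hspa1a and Hspa1b, stress-induced HSP70 genes in the interval around Ehmt2, are near-identical copies whose reads could be split between them. Hspa1b read 313, 176 and 698 RPKM in Ctrl and 442, 409 and 349.6 in KO, with the widest spread in Ctrl and the groups overlapping. With quantile normalization Hsp90ab1 changed by 0.48, Hsp90aa1 by 0.49 and Hspa8 by 0.34.

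Other genes of this kind were less abundant. Dmac1, an assembly factor of respiratory complex I, read 43.7, 52.6 and 59.0 RPKM in Ctrl and 85.4, 95.1 and 93.1 in KO, a change of 0.81 (0.42 to 1.21). Pcbd2, a pterin dehydratase, changed by 0.99 (0.50 to 1.47) and Kcnk5, a potassium channel, by 1.01 (0.46 to 1.55), from 15.1 ± 1.26 to 31.4 ± 3.53 RPKM. Pate1, a gene known from the male reproductive tract, read 6.24, 11.8 and 5.97 RPKM in Ctrl and 27.2, 34.4 and 19.9 in KO. The remaining genes named by the rule were Mir142b, Oas1c, Paqr8, Zfp846 and Rps4l, with changes of 1.77 to 2.23 and levels of at most 14.7 RPKM in any Ctrl library. None of the 10 was called. In general 4.52% of tested genes had all KO libraries above all Ctrl libraries and 7.64% had all KO libraries below. Of 1500 tested genes of 50 RPKM or more, 174 had all KO libraries above and 28 had them below.

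Atf3 led the KO-lower side among well-expressed genes. It read 214, 190.0 and 128 RPKM in Ctrl and 109, 31.7 and 41.0 in KO. The groups did not overlap, though the highest KO library, replicate 1, came near the lowest Ctrl library. The change was -1.71 (-2.43 to -0.99), with an unadjusted p of 0.00014 and an adjusted p of 0.317 in limma. Without KO replicate 1 it was -2.23 with an adjusted p of 0.0010, the only gene called in that setting. Without KO replicate 2 it was -1.35. Over all alternatives that leave out 1 library it stayed between -2.23 and -1.35.

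Atf3 belongs to the immediate early genes, which are induced within minutes of handling or receptor signals. Of 30 tested immediate early genes 2 were higher and 3 lower at an unadjusted p under 0.05, against 2.39% and 4.68% of all tested genes, 21 were bounded within 2-fold, and the median was -0.02. Junb, an AP-1 subunit, read 878, 704 and 597 RPKM in Ctrl and 859, 766 and 901 in KO, and Dusp2, a phosphatase of MAP kinases, averaged 433 ± 14.7 and 428 ± 40.9. Egr1, a zinc finger factor, read 237, 96.6 and 66.0 in Ctrl and 70.8, 66.5 and 56.1 in KO, so that Ctrl replicate 1 set most of its change of -0.83. Nr4a1, a nuclear receptor induced by antigen, read 510.0, 336 and 313 in Ctrl and 291, 199 and 328 in KO, and the groups overlapped. Fos overlapped too, at 521, 268 and 261 in Ctrl and 323, 285 and 268 in KO. Ctrl replicate 1 was the highest library for Atf3, Egr1, Nr4a1 and Fos. Cd69, an early activation antigen, read 259, 337 and 269.7 in Ctrl and 354, 396 and 380.4 in KO, a change of 0.39 (0.11 to 0.68).

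**Figure D3:**
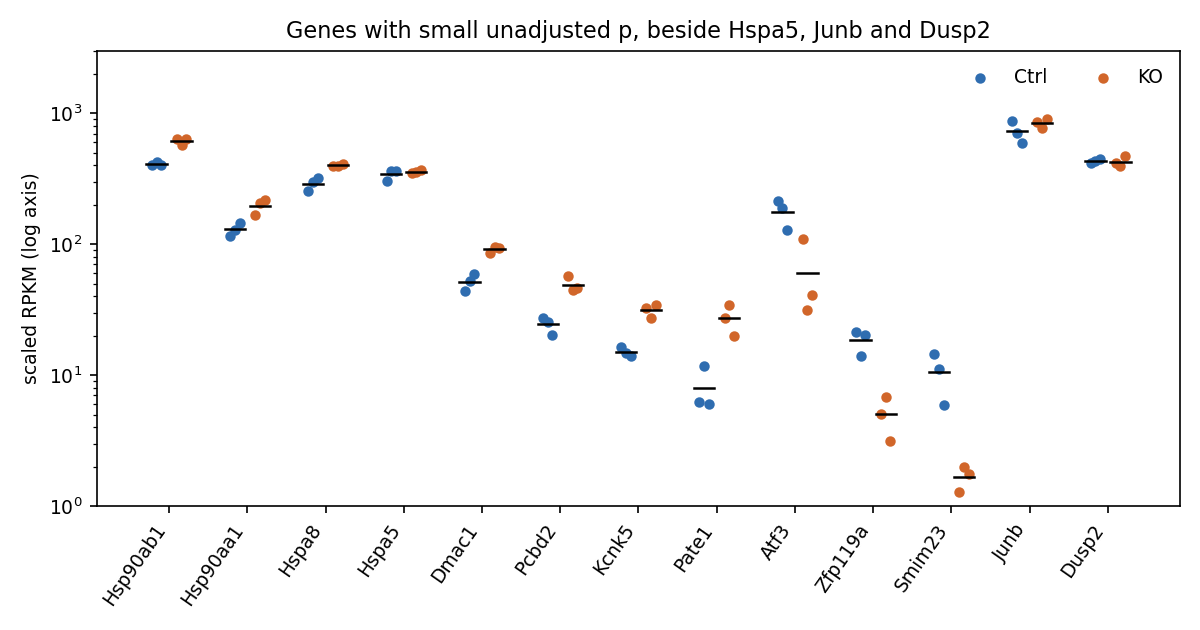
Scaled RPKM on a log axis by library for 11 genes of small unadjusted p or named with them and for Junb and Dusp2; points are libraries (Ctrl blue, KO orange) and black bars are group means. The KO points of Hsp90ab1 (573 to 633) lie above its Ctrl points (399.6 to 424), those of Atf3 (31.7 to 109) below (128 to 214), and those of Hspa5, Junb and Dusp2 overlap.

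The other genes with small p on the lower side were expressed at low levels. Zfp119a, a zinc finger gene, read 21.5, 14.1 and 20.1 RPKM in Ctrl and 5.07, 6.87 and 3.12 in KO, a change of -1.73 (-2.53 to -0.92). The 8 others were Olfr661, Odf1, Olfr812, Olfr720, Reg2, Smim23, Olfr432 and Olfr370, among them 5 odorant receptors, the sperm tail gene Odf1 and the pancreatic gene Reg2. Olfr661, with the smallest p of all, read 9.60, 4.03 and 3.76 RPKM in Ctrl and was listed at 0 in every KO library. None was called.

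Odorant receptors were therefore read as a group. Over 57 odorant receptor genes, which B cells are not known to use, the median RPKM as deposited was 6.63, 4.41 and 7.22 in Ctrl and 4.36, 5.13 and 1.75 in KO. In the 12 libraries of sorted cells it was at most 1.01. In the naive comparison 18 of 57 were lower and 0 higher at an unadjusted p under 0.05, against 4.68% and 2.39% of all tested genes. The median change of the 57 was -0.86. Genes below 1 RPKM numbered 862, 1144 and 661 in Ctrl and 1797, 897 and 2479 in KO. KO replicate 3 had the lowest odorant receptor median and the most genes below 1 RPKM, and KO replicate 2 lay within the Ctrl range on both measures. The part of this low signal in the lower genes was not tested.

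The direction of small-p genes depended on their level. Among 4519 genes under 5 RPKM 46 were higher and 355 lower at an unadjusted p under 0.05, with a median change of -0.35. Among 1500 genes of 50 RPKM or more 103 were higher and 12 lower, with a median of 0.08. With quantile normalization the counts were 186 higher and 151 lower among the low genes and 58 and 33 among the high ones, with medians of -0.01 and 0.00. Over all genes that setting gave 417 higher and 351 lower, against 302 and 591. Without KO replicate 2 the low genes gave 42 higher and 752 lower, and without KO replicate 3 they gave 61 and 194. Without Ctrl replicate 1 they gave 48 and 179, without Ctrl replicate 3 44 and 197, and without KO replicate 1 43 and 228. The split by direction changed with the scaling, while Atf3 (-1.78), Kcnk5 (1.01) and Hsp90ab1 (0.48) kept their direction in quantile normalization.

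**Figure D4:**
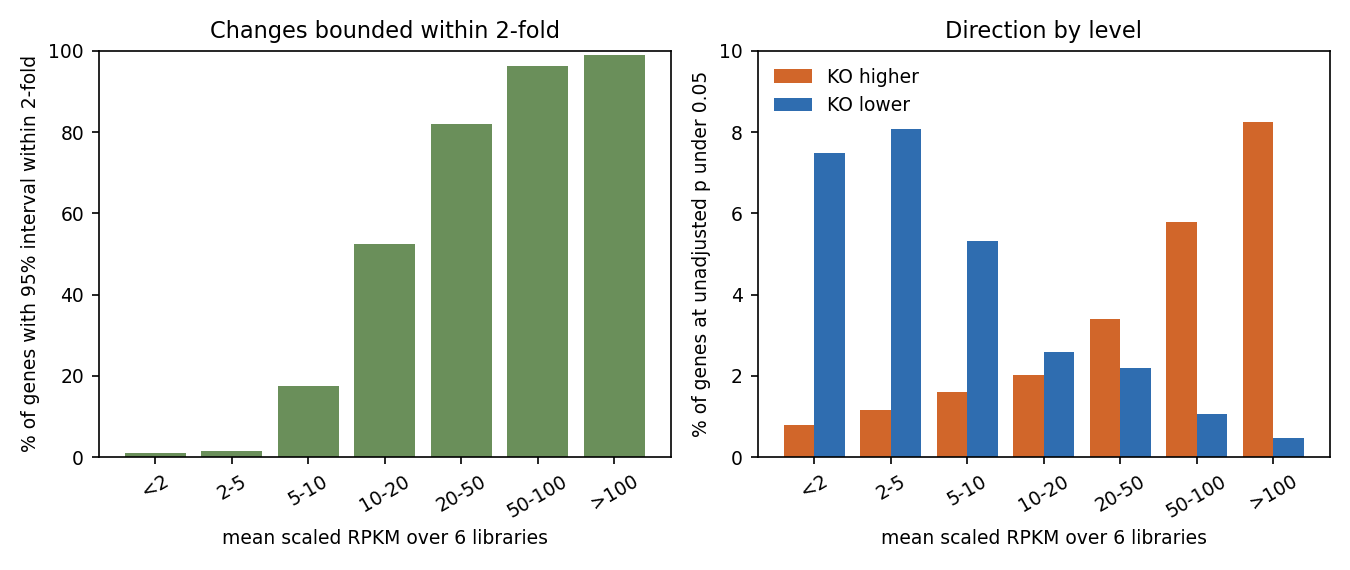
Left, the percentage of tested genes in each class of mean scaled RPKM whose 95% interval lies within 2-fold; right, the percentage with an unadjusted p under 0.05, KO higher in orange and KO lower in blue. The bounded share climbs from 1.08% under 2 RPKM to 98.9% above 100 RPKM, and small-p genes are mostly lower in KO at low levels and mostly higher at high levels.

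Genes near Ehmt2 and germline genes were counted as well. Of 18 tested genes of the chromosome 17 interval around Ehmt2 none was called, 10 were bounded within 2-fold and the median change was -0.02. Atf6b, a membrane-bound factor of the unfolded protein response, read 55.7, 48.9 and 41.9 RPKM in Ctrl and 28.4, 30.5 and 30.8 in KO, with separate groups and a change of -0.68 (-1.14 to -0.23), adjusted p 0.590 in limma. Clic1, a chloride channel protein, changed by 0.22 (-0.04 to 0.48). Of 15 tested germline genes 2 were higher at an unadjusted p under 0.05, against 2.39% of all tested genes. Ddx4, the germ cell helicase VASA, read 0.170, 0.934 and 0.905 RPKM in Ctrl and 1.63, 2.56 and 3.37 in KO, and Tdrkh, a piRNA pathway protein, averaged 0.458 ± 0.560 and 1.74 ± 0.235. Both are at levels where 1.08% to 1.52% of genes could be bounded, and the list's median was -0.05. With quantile normalization the median was 0.26 and 3 were higher, so the list gives no direction.

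The knockout effect was then set against that in activated B cells. In activated cells the same test on their own 6 libraries called 1759 of 10067 genes (17.5%), 828 higher (8.22%) and 931 lower (9.25%). The naive and activated values come from different libraries that share no control. Of the 815 higher genes that were tested in naive cells, 414 were higher there too (50.8%). The median change of the 815 was 0.00 in naive and 0.45 in activated cells. Of the 915 lower genes that were tested in naive cells, 489 were lower (53.4%). The median of the 915 was -0.03 in naive and -0.52 in activated cells. Among genes changed at least 2-fold in activated KO, 30 of 50 tested higher genes (60.0%, naive median 0.13) and 46 of 75 tested lower genes (61.3%, naive median -0.13) had the same direction in naive cells. At an unadjusted p under 0.05 in naive cells, 5 of the higher ones had the same and 3 the opposite direction, and 7 and 2 of the lower ones. At that p 2.39% of all tested genes were higher in naive KO and 4.68% lower. Over all genes tested in naive cells 42.3% of changes were positive and 57.7% negative. Direction depended on level, with median changes of -0.42 under 2 RPKM, -0.02 at 10 to 20 and 0.03 at 20 to 50 RPKM. The naive median level was 12.4 RPKM for the 815 genes and 25.4 RPKM for the 915. The shares over all genes are therefore no matched background for these lists. In naive cells 353 of the 815 and 584 of the 915 were bounded within 2-fold. Cell type, LPS and the method of isolation changed together between these cells and cannot be told apart.

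The difference between the 2 knockout effects was tested directly, as naive effect minus activated effect. It was called for 23 of 12722 genes (0.181%), 16 with a higher effect in naive cells (0.126%) and 7 with a lower one (0.055%), and 1490 genes (11.7%) had an unadjusted p under 0.05. Naive libraries varied more than activated ones, and with weights estimated for each cell type 3 genes were called. Without KO replicate 2 244 were called, without Ctrl replicate 2 61, without Ctrl replicate 1 41 and without KO replicate 1 14. D17H6S56E-5 and Jchain were called in 8 of 8 alternatives. These were weights by cell type, all 18 libraries and leaving out each naive library, and no activated library was left out. Levels of naive and activated cells were scaled separately, so they are compared within a cell type. D17H6S56E-5 (Entrez 110956, chr17:34996678-35000774), a gene near Ehmt2, read 101, 129 and 102 RPKM in naive Ctrl and 125, 126 and 108 in naive KO, and averaged 64.9 ± 4.73 in activated Ctrl and 17.7 ± 0.784 in activated KO. Its naive change was 0.12 (-0.23 to 0.47) and its activated change -1.82, and the difference was 1.92 ± 0.18 (SE, adjusted p 5.8e-04 in limma).

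Jchain, which joins IgM and IgA into polymers, read 116, 112 and 124 RPKM in naive Ctrl and 179.6, 131 and 139 in naive KO. The KO libraries were all higher, by 0.34. In activated cells it averaged 346 ± 51.3 in Ctrl and 133 ± 9.07 in KO, and the difference of effects was 1.68 ± 0.19 (SE, adjusted p 0.0016 in limma). Apoe, the lipid carrier, was present in naive cells at 109, 100.3 and 86.5 RPKM in Ctrl and 95.2, 72.5 and 115 in KO. In activated cells it averaged 50.5 ± 21.9 in Ctrl and 2.59 ± 0.400 in KO, a difference of effects of 3.64 ± 0.40 (SE, adjusted p 0.0016 in limma). Irf7, a factor of the interferon response, averaged 40.8 ± 7.98 and 41.4 ± 3.50 in naive cells and 17.8 ± 3.64 and 3.71 ± 0.752 in activated cells. All 4 were called lower in activated KO. With weights by cell type the differences of Apoe and Irf7 were not called, with adjusted p of 0.091 and 0.096 in limma.

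Receptor genes were called with less margin. The activated changes of Cd79a, Cd79b and Cd72, an inhibitory coreceptor, were -0.56, -0.59 and -1.07, and their naive changes 0.12, 0.11 and 0.10. The differences were 0.66, 0.67 and 1.15, with adjusted p of 0.041, 0.047 and 0.039 in limma. They were called in 4, 3 and 6 of 8 alternatives, and not with weights by cell type, with adjusted p of 0.30, 0.28 and 0.16 in limma. Btg1 had 0.03 in naive and -0.94 in activated cells. Dnajb9, a chaperone of the endoplasmic reticulum, was at 54.4 ± 7.06 and 71.5 ± 4.85 RPKM in naive cells, and its changes were 0.39 and -0.94. Kcnk5 changed by 1.01 in naive and by -0.54 in activated cells. With weights by cell type the differences of Btg1, Dnajb9 and Kcnk5 were not called, with adjusted p of 0.15, 0.13 and 0.096 in limma.

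Of the 7 genes with a lower effect in naive cells, Afp, Gml2, Gbp2b, Bag2 and Tmem97 were called higher in activated KO. Afp, the fetal serum protein, read 10.7, 1.74 and 8.29 RPKM in naive Ctrl and 3.09, 2.04 and 5.5 in naive KO, and averaged 1.39 ± 0.408 and 18.5 ± 1.11 in activated Ctrl and KO. Gml2, of the Ly6 family, was at most 0.174 RPKM in any naive library and averaged 2.73 ± 0.358 and 14.9 ± 2.07 in activated cells. Gbp2b, a GTPase induced by interferon, averaged 3.87 ± 1.93 and 1.43 ± 1.06 in naive cells and 8.67 ± 1.60 and 30.3 ± 3.70 in activated cells. With weights by cell type the difference of Afp was called, with an adjusted p of 0.033 in limma, and those of Gml2 and Gbp2b were not, at 0.096 and 0.077.

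Of 24 genes reported as changed in activated KO by an earlier account of these data, 21 were tested in naive cells. At an unadjusted p under 0.05, 2 were higher and 1 lower, against 2.39% and 4.68% of all tested genes. Of the 21, 10 were bounded within 2-fold. Ly6c2, a surface antigen with a near-identical copy in Ly6c1, read 45.4, 26.3 and 20 RPKM in naive Ctrl and 71.2, 58.4 and 39.6 in naive KO, with overlap between the groups and a change of 0.90 (0.28 to 1.53), against 2.68 in activated cells. Akr1c13, an aldo-keto reductase, read 0, 8.45 and 2.72 in naive Ctrl and 5.44, 8.39 and 12.8 in naive KO, and averaged 0.253 ± 0.260 and 41.3 ± 2.72 in activated cells. S1pr1, the egress receptor, had a naive change of -0.12 (-0.44 to 0.21) and an activated change of -1.19. Xbp1 had 0.25 (-0.21 to 0.70) and -0.97. The differences of effects of these 4 genes were not called, with adjusted p of 0.059, 0.086, 0.059 and 0.059 in limma.

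**Figure D5:**
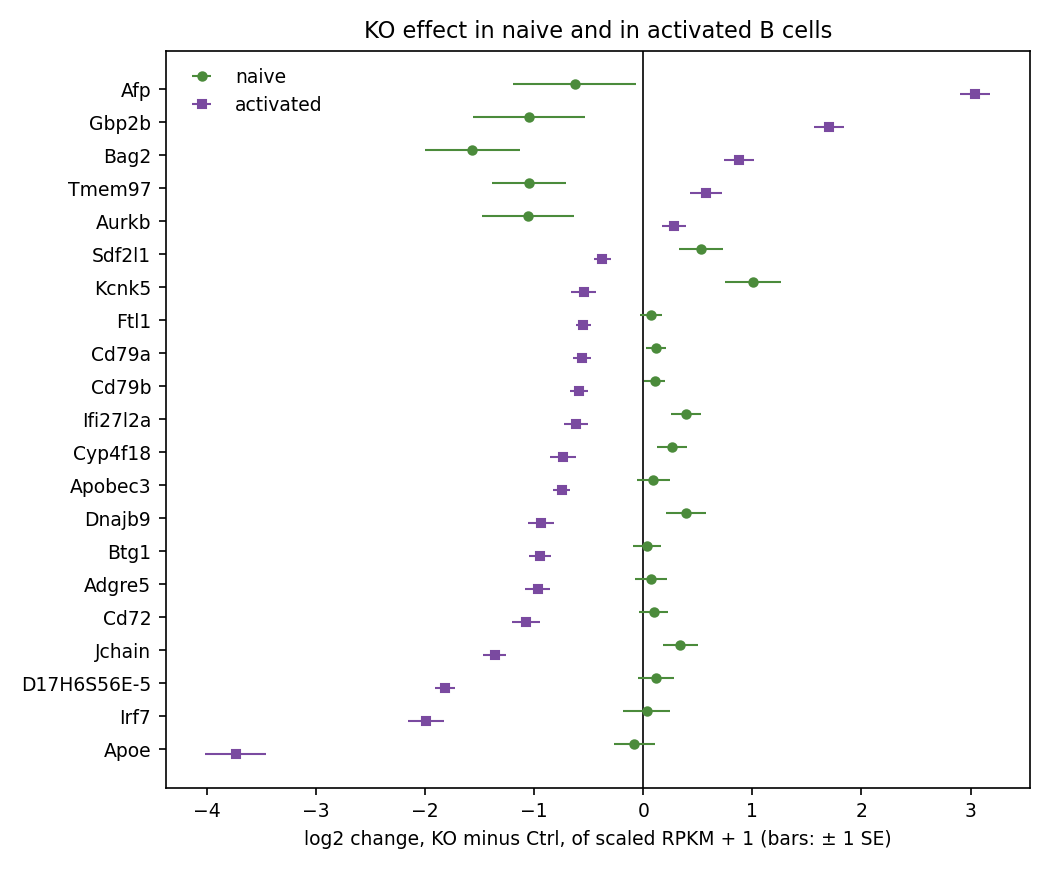
Log2 change, KO minus Ctrl, of scaled RPKM + 1 with 1 SE for the genes whose knockout effect differed between naive (green circles) and activated (purple squares) B cells, without Cnih2 and Gml2, which were not tested in both cell types. Naive points of D17H6S56E-5, Apoe and Irf7 sit between -0.08 and 0.12 while their activated points sit between -3.74 and -1.82.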

How the data were processed

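RNA-seq values of 12960 genes in 18 libraries were deposited by the authors as RPKM, reads relative to gene length and library size. Per the submitters' processing notes, STAR and mm10 were used; for the read counter, gene models, strand setting and versions: not given in the sources used here. RPKM are not counts, so no count test was run, and reads of near-identical or overlapping genes cannot be separated. Depth was estimated from the steps of low values as 1620000 to 3990000 reads per naive library; only 37.0% to 42.0% of those values came within 0.1 of a whole read, so no counts were recovered and the depths are rough.

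The 6 naive libraries were scaled by median of ratios over 9383 genes. Genes with a mean of at least 1 RPKM in a group were tested on log2(RPKM + 1) with limma 3.58.1 in R 4.3.3, with a trend and Benjamini-Hochberg adjustment over 12626 genes. A fold change on this scale understates the change of low genes. Bounded within 2-fold means a 95% interval between -1 and 1. Activated libraries were fitted in the same way, and the difference of effects in 1 model of 12 libraries. The code was tested on simulated data. Tables and figures were made with Python 3.11.15, pandas 2.3.3 and matplotlib 3.10.9. Alternatives were other pseudocounts, filters, scalings and weights, all 18 libraries, a replicate block and leaving out each naive library. For the difference of effects they were weights by cell type, all 18 libraries and leaving out each naive library.

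The members and lists were chosen with earlier results of these data known. Named genes are the G9a list, the 10 smallest p per direction among genes of 5 RPKM or more without overlap, and the 15 most abundant. Also named are the 3 most abundant and 2 smallest p of each list, the 10 narrowest intervals, and the genes named in activated KO. Hsp90aa1, Hspa8, Dnajb9, Gbp2b, Sdf2l1, Adgre5, Fcer2a, Prdm1, Mki67, Cd3e, Pax5, Ebf1, Egr1, Nr4a1, Fos, Tnfrsf13c, Tlr4, Mcm6, Bag2 and Tmem97 were chosen after their values were seen. The promoter table is from RefSeq, GRCm38.p6, and plasma cell libraries entered only the spread, depth and odorant receptor values and the fit of all 18 libraries. The values of some genes are not reported here.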

Additional observations from a re-analysis of the deposited data

Results flagged for a closer look

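For 16 named genes the knockout effect differed between naive and activated B cells by a test of the difference itself, an interaction term in limma with an adjusted p under 0.05. The difference is given as naive minus activated on the log2 scale. It was positive for D17H6S56E-5 at 1.92 (1.915 before rounding), for Apoe at 3.64, for Irf7 at 2.0 and for Jchain at 1.68. It was also positive for Kcnk5 at 1.53, Dnajb9 at 1.31, Cd72 at 1.15, Adgre5 at 1.02, Btg1 at 0.96, Sdf2l1 at 0.88, Cd79b at 0.67 and Cd79a at 0.66. It was negative for Afp at -3.68, Gbp2b at -2.77, Gml2 at -2.11 and Aurkb at -1.36. Aurkb was not called in activated KO, where its change was 0.28 with an adjusted p of 0.093 in limma. Its naive means were 7.32 RPKM in Ctrl and 3.01 in KO. Like those of Afp, Gbp2b and Gml2 they lay below about 10 RPKM, where naive changes were unresolved. With libraries weighted by cell type D17H6S56E-5, Jchain and Afp kept the call and the 13 others lost it. Their adjusted p was then 0.30 for Cd79a, 0.28 for Cd79b, 0.19 for Adgre5, 0.16 for Cd72, 0.15 for Btg1 and 0.13 for each of Aurkb, Dnajb9 and Sdf2l1. It was 0.096 for each of Gml2, Irf7 and Kcnk5, 0.091 for Apoe and 0.077 for Gbp2b. Cell type, LPS and isolation cannot be told apart in these differences.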

How the results depend on the processing

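The count of 0 genes called in naive KO held in limma with a pseudocount of 0.1 or 5, no filter or a filter at 5 RPKM, RPKM as deposited, quantile normalization and library weights. The fit of all 18 libraries called 923 genes. Leaving out each library gave 0 to 1, and the 1 gene, without KO replicate 1, was Atf3. Unadjusted p under 0.05 was reached by 893 genes, and by 625 to 1361 without 1 library. Where 1 library was left out of 3, the test took its spread from the remaining 5.

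A fit with the replicate number as a block called 1 gene, Atf3. Same-numbered libraries did not deviate together (r across genes -0.0021, -0.19 and -0.12). These are deviations from the means of small, variable groups, so they cannot settle whether the numbers pair the samples.

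The number of genes bounded within 2-fold, 4819, was 11161 with a pseudocount of 5, which shrinks low genes, 8317 with all 18 libraries, and 3583 to 3982 without 1 library. Of the genes called in activated KO, 903 had the same direction in naive cells, 759 with the filter at 5 RPKM, which tests fewer genes, and 860 to 927 without 1 library. The 23 genes with different effects became 3 with weights by cell type and 334 with all 18 libraries. Without 1 naive library they became 14 to 244, with 244 without KO replicate 2. No named gene that was called changed direction under any alternative run. Low depth and wide spread leave changes of genes below about 10 RPKM unresolved.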
